A study of Mus musculus with 15 samples.

Results

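The mouse genes for UDP-glucuronosyltransferases (UGT) and sulfotransferases (SULT) were described in liver RNA from mice on a control diet and 2 alcohol diets. Members were all gene symbols that begin with Ugt1a, Ugt2a, Ugt2b, Ugt3a or Sult followed by a digit. They made up 39 of the 18510 rows of the deposited table. A mean of at least 0.5 FPKM in at least 1 group was reached by 23 of them, and the other 16 are only counted. Sult3a1, at a mean of 1.01 FPKM in the Alc group, had the lowest highest group mean of the 23, and Ugt1a10, at 0.448 in the same group, had the highest of the 16. One of the 16, Sult2a6, was listed at 0 in every library.

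The livers came from wild-type (WT) mice, 5 in each of 3 groups. The Ctrl mice received a control diet, the Alc mice an alcohol diet, and the Alc UA mice an alcohol diet with UA, which the labels do not expand. The labels state no strain, sex, age, length of the diets or hour of collection. Values are FPKM, the fragments mapped to a transcript scaled to its length and to the size of the library. They can be compared between genes because they are per length, but sequencing depth is unknown. Summed FPKM per library ran from 551153 to 668832, and 10119 to 11471 genes reached 1 FPKM. In whole liver, fewer cells of a type and less RNA per cell cannot be told apart. Levels below are FPKM, with mean ± SD over 5 libraries. Differences are of log2(FPKM + 1) ± SE from a limma fit over all 15 libraries and 10959 tested genes, and a gene is said to have risen or fallen where its Benjamini-Hochberg adjusted p was under 0.05.

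UGT enzymes of the endoplasmic reticulum join glucuronic acid, supplied as UDP-glucuronic acid, to bilirubin, steroids, bile acids and drugs. SULT enzymes of the cytosol join a sulfo group from the donor PAPS to phenols, hydroxysteroids and bile acids. Both reactions make their substrates more soluble in water and ready for export into bile or blood. A small part of ingested ethanol leaves the body as ethyl glucuronide and ethyl sulfate, made by these enzymes. Many of the genes are known targets of the liver's xenobiotic receptors CAR, PXR and AHR and of the lipid sensor PPAR alpha.

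On the alcohol diet, 8 of the 22 tested members rose and 3 fell against Ctrl by limma with Benjamini-Hochberg adjustment. That is 36.4% higher and 13.6% lower, where 33.3% of all tested genes were called, 10.6% higher and 22.8% lower. The rises were Ugt1a9, Ugt1a1, Sult2a7, Sult1b1, Sult1c2, Ugt1a6a, Ugt2b34 and Ugt3a2, and the falls were Ugt2b38, Ugt1a6b and Ugt2b5. The median difference of the 22 was 0.40, and that of all tested genes was -0.12. Of the 22, 18 reached 1 FPKM in all 15 libraries, and 7 of these rose and 2 fell. The other 4, namely Sult2a7, Sult5a1, Ugt2b37 and Ugt2b38, could pass the minimum of 1 FPKM in 5 libraries through a part of the libraries, and Sult3a1 did not pass it. Dividing the libraries by median-of-ratios size factors moved the median of all genes to -0.01 and the calls over all genes from 1157 higher and 2497 lower to 2012 and 1943. Under that scaling 12 members were called higher and 2 lower, the call of Ugt2b5 was lost, and the other 10 calls held with their directions.

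**Figure D1:**
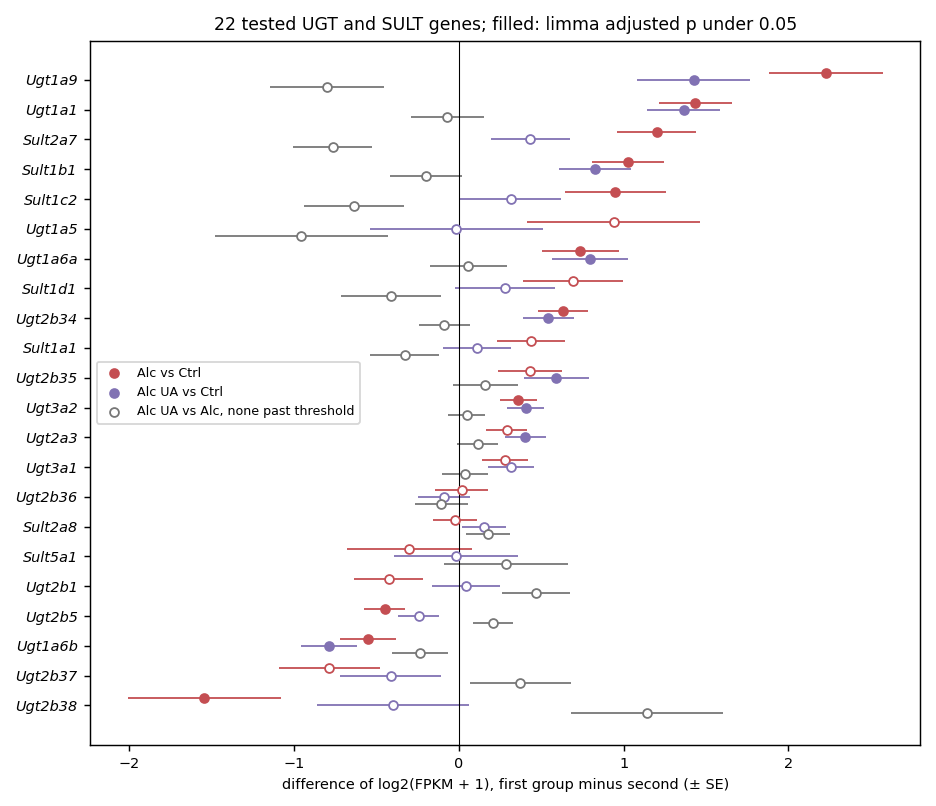
Differences of log2(FPKM + 1), first group minus second, for the 22 tested UGT and SULT genes, with horizontal bars of 1 SE. Filled points have a limma adjusted p under 0.05. Ugt1a9 (2.23) lies at the top and Ugt2b38 (-1.54) at the bottom for Alc against Ctrl, and no point for Alc UA against Alc is filled.

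The sum over the 39 members was 2358 ± 292 FPKM in Ctrl, 2606 ± 75.6 in Alc and 2552 ± 161 in Alc UA. UGT genes gave 1581 ± 175, 1706 ± 153 and 1699 ± 159 of these, and SULT genes 777 ± 150, 900 ± 112 and 853 ± 133. These sums overlapped between groups.

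The UGT1A genes lie in 1 locus on chromosome 1, where each has its own first exon with its own promoter and all share the remaining exons. In the 9 Ugt1a coding transcripts of the GENCODE M21 annotation (GRCm38), the last 737 coding bases were identical, and 847 to 868 coding bases before them differed between genes. The 60 bases around that point are printed for the 5 expressed members, 5′ to 3′, because they show which part of a transcript can tell the genes apart. Lower case marks the own part of each gene and capitals mark the shared part.
Ugt1a1: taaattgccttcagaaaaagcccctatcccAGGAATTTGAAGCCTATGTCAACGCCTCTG
Ugt1a9: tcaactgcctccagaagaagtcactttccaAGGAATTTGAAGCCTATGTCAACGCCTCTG
Ugt1a5: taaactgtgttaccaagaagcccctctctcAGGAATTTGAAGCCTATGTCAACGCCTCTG
Ugt1a6a: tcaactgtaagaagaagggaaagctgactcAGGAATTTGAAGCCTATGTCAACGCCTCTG
Ugt1a6b: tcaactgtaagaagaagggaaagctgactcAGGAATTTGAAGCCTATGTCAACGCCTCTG
The last 30 own bases of Ugt1a6a and Ugt1a6b were the same. Over all 856 bases of their own parts these copies differed by 26 edits, an identity of 96.96%. A read of 100 bases could not tell Ugt1a6a from at least 1 other coding transcript in 57.9% of its coding windows. For Ugt1a1 this share was 42.4%, for Ugt1a9 43.6% and for Ugt1a5 50.5%. No label says how such reads were divided, so the levels of single UGT1A genes are uncertain. The windows cover coding sequence only, and their shares do not measure how large that uncertainty is.

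Ugt1a1, the bilirubin-conjugating enzyme, rose on both alcohol diets. It measured 68.7, 120.5, 115, 49.6 and 126 FPKM in Ctrl 1 to 5, 253, 237, 229, 226 and 288 in Alc 1 to 5, and 240.3, 253, 176, 298 and 219 in Alc UA 1 to 5. Every library of both alcohol groups lay above every control. The means were 96.0 ± 34.5 FPKM in Ctrl, 247 ± 25.6 in Alc and 237 ± 44.8 in Alc UA. Against Ctrl the difference was 1.44 ± 0.22 in Alc (adjusted p = 0.00041, limma) and 1.37 ± 0.22 in Alc UA (adjusted p = 0.00036, limma).

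Ugt1a9, whose human counterpart conjugates phenolic drugs, had the largest rise on the log2(FPKM + 1) scale. It measured 6.84, 26.6, 21.4, 9.38 and 14.1 FPKM in Ctrl 1 to 5, 53.7, 63.0, 45.7, 134 and 76.5 in Alc 1 to 5, and 41.1, 25.8, 50.7, 29.9 and 57.7 in Alc UA 1 to 5. All Alc libraries lay above all controls, with Alc 4 highest. The lowest Alc UA library, Alc UA 2, lay just under the highest control, Ctrl 2. The mean went from 15.7 ± 8.26 FPKM in Ctrl to 74.5 ± 35.1 in Alc, 4.76-fold, and was 41.0 ± 13.5 in Alc UA. The difference from Ctrl was 2.23 ± 0.35 in Alc (adjusted p = 0.00042, limma) and 1.42 ± 0.35 in Alc UA (adjusted p = 0.0046, limma). The Alc UA value was 0.90 with library weights (adjusted p = 0.028, limma).

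Ugt1a6b, a copy of the phenol-conjugating Ugt1a6, went the other way. It measured 356, 314, 194, 301 and 206 FPKM in Ctrl 1 to 5, 149, 184, 211, 202 and 169 in Alc 1 to 5, and 135, 148, 187, 181 and 128 in Alc UA 1 to 5. Ctrl 3 and Ctrl 5 lay within the Alc range, while all Alc UA libraries lay below all controls. The mean was 274 ± 70.8 FPKM in Ctrl, 183 ± 25.0 in Alc and 156 ± 26.9 in Alc UA. It fell by 0.55 ± 0.17 in Alc (adjusted p = 0.023, limma) and by 0.79 ± 0.17 in Alc UA (adjusted p = 0.0024, limma). The call in Alc was lost without Ctrl 1, Ctrl 2, Ctrl 4, Alc 1 or Alc 5, each left out alone, at adjusted p from 0.055 to 0.061 (limma).

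Ugt1a6a, the other copy, was far lower. It measured 5.74, 11.4, 9.85, 3.88 and 13.5 FPKM in Ctrl 1 to 5, 13.0, 12.9, 13.2, 14.1 and 18.8 in Alc 1 to 5, and 15.4, 15.2, 13.7, 18.0 and 12.6 in Alc UA 1 to 5. Ctrl 5 was the only control inside the Alc range, and Alc 5 stood above the other Alc libraries. The difference from Ctrl was 0.74 ± 0.23 in Alc (adjusted p = 0.025, limma) and 0.80 ± 0.23 in Alc UA (adjusted p = 0.013, limma). The Alc call was lost without Ctrl 1, Ctrl 4 or Alc 5, at adjusted p from 0.055 to 0.068, and with the 2 groups fitted alone, at 0.052 (limma). Because the copies share so much sequence, their sum is also given: 283 ± 68.4 FPKM in Ctrl, 197 ± 24.6 in Alc and 171 ± 27.9 in Alc UA.

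Ugt1a5, a less studied member, varied within every group. It measured 8.4, 16.0, 15.6, 6.19 and 36.1 FPKM in Ctrl 1 to 5, 21.7, 42.1, 8.51, 38.3 and 49.2 in Alc 1 to 5, and 20.4, 7.9, 20.6, 5.01 and 26.2 in Alc UA 1 to 5. The 3 groups overlapped, and the difference of 0.94 ± 0.53 in Alc against Ctrl did not pass the test (adjusted p = 0.18, limma). Without Alc 3, the lowest Alc library, it was 1.33 with an adjusted p of 0.048 (limma).

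With these differences the leading UGT1A transcript changed places in the deposited values. The order and shares below carry the uncertainty from reads that the UGT1A genes share. Ugt1a6b was above Ugt1a1 in all 5 controls, while Ugt1a1 was above Ugt1a6b in 5 of 5 Alc and 4 of 5 Alc UA libraries. Of the summed UGT1A FPKM, Ugt1a6b took 66.3% ± 13.7 in Ctrl, 33.4% ± 5.16 in Alc and 33.4% ± 5.07 in Alc UA. Ugt1a1 took 23.5% ± 8.88, 45.0% ± 5.48 and 50.8% ± 7.01, and Ugt1a9 took 3.81% ± 1.89, 13.2% ± 4.96 and 8.94% ± 3.30. The sum itself was 412 ± 55.4 FPKM in Ctrl, 551 ± 55.5 in Alc and 466 ± 37.5 in Alc UA. All Alc sums, from 491 FPKM, lay above all control sums, which reached 489.

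**Figure D2:**
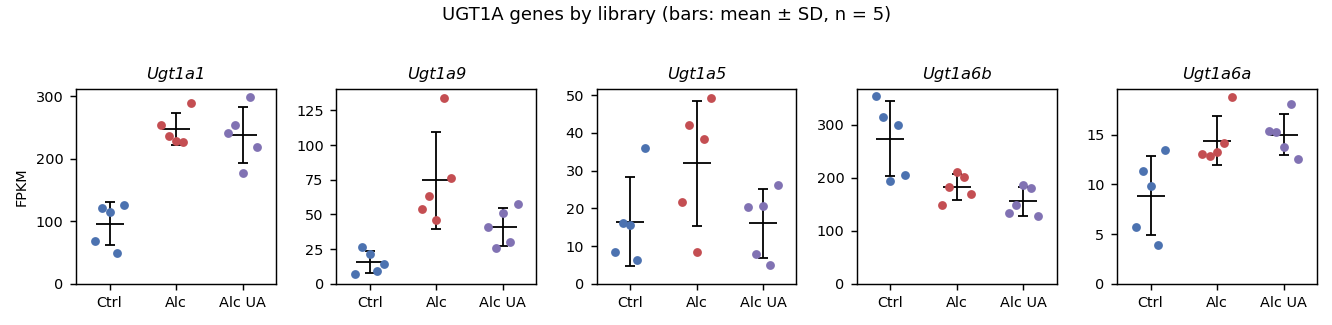
FPKM of the 5 expressed UGT1A genes in each library, with points for libraries and bars for the mean ± SD of 5. Ugt1a1 and Ugt1a9 in the Alc libraries lie above all controls, and Ugt1a6b in the Alc UA libraries lies below all controls.

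Among the UGT2 genes, which conjugate steroids, bile acids and drugs, 1 of 8 tested members rose and 2 fell in Alc against Ctrl, near the 10.6% higher and 22.8% lower over all tested genes. Their summed FPKM was 998 ± 109 in Ctrl, 938 ± 91.1 in Alc and 1011 ± 129 in Alc UA, so the groups overlapped. Ugt2b34 is the member that rose and Ugt2b5 and Ugt2b38 are those that fell.

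Ugt2b34 measured 112, 118, 87.6, 75.2 and 120.0 FPKM in Ctrl 1 to 5, 128, 163, 142, 193 and 167 in Alc 1 to 5, and 126, 157, 122, 173 and 169 in Alc UA 1 to 5. Every library of both alcohol groups was above every control, the highest of which was Ctrl 5. The difference from Ctrl was 0.63 ± 0.15 in Alc (adjusted p = 0.0065, limma) and 0.54 ± 0.15 in Alc UA (adjusted p = 0.010, limma). Its share of the UGT2 sum was 10.2% ± 0.991 in Ctrl, 16.8% ± 1.35 in Alc and 14.8% ± 2.14 in Alc UA.

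Ugt2b5 was the UGT2 gene with the highest level. It measured 395, 496, 404, 375 and 416 FPKM in Ctrl 1 to 5, 263, 291, 309, 359 and 304 in Alc 1 to 5, and 319.9, 381, 297, 449 and 326 in Alc UA 1 to 5. All Alc libraries lay below all controls, whereas Alc UA 2 and Alc UA 4 lay within the control range. It fell by 0.45 ± 0.12 in Alc (adjusted p = 0.013, limma). That call was lost with median-of-ratios size factors (-0.32, adjusted p = 0.053, limma) and with quantile normalization (-0.28, adjusted p = 0.10, limma). In Alc UA the difference was -0.24 ± 0.12 (adjusted p = 0.12, limma). This difference passed with library weights (-0.36, adjusted p = 0.020, limma) and without Alc UA 4 (-0.33, adjusted p = 0.035, limma). The share of Ugt2b5 in the UGT2 sum was 36.5% to 45.7% in Ctrl and 31.2% to 33.7% in Alc, without overlap, and 32.3% to 37.2% in Alc UA. Dividing a library by a factor leaves this share unchanged. It also falls where other members rise, and the mean share of Ugt2b34 went from 10.2% in Ctrl to 16.8% in Alc. The share therefore does not show that the level of Ugt2b5 fell.

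Ugt2b38 is a low copy of Ugt2b5, with 97.0% identical coding sequence. It measured 0.47, 1.32, 4.67, 6.59 and 7.92 FPKM in Ctrl 1 to 5, 0.22, 1.31, 0.09, 0.14 and 0.77 in Alc 1 to 5, and 1.03, 5.69, 3.39, 1.01 and 1.72 in Alc UA 1 to 5. Ctrl 1 and Ctrl 2 lay within or just above the Alc range, and the other controls lay well above it. It fell by 1.54 ± 0.46 in Alc (adjusted p = 0.019, limma), a call that was lost without Ctrl 4 (adjusted p = 0.055, limma) and with library weights (-0.90, adjusted p = 0.054, limma). With a pseudocount of 0.1 the difference was -2.70. In Alc UA the difference from Ctrl was -0.40 ± 0.46 (adjusted p = 0.51, limma). Windows of 100 bases could not tell Ugt2b5 and Ugt2b38 apart over 29.0% of their coding sequence. Ugt2b37, 94.7% identical to Ugt2b5, ranged from 0.94 to 2.75 FPKM in Ctrl, 0.03 to 1.38 in Alc and 0.18 to 2.75 in Alc UA. Its difference of -0.79 ± 0.31 in Alc did not pass the test (adjusted p = 0.058, limma). It passed with a pseudocount of 0.1 (-1.93, adjusted p = 0.039, limma), without Alc 5 (-0.97, adjusted p = 0.032, limma), without Alc UA 2 (adjusted p = 0.028, limma) and with the 2 groups alone (adjusted p = 0.034, limma).

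Next to the start of these copies on chromosome 5 lies a stretch that they share with Ugt2b36. It is printed within the 150 bases before each start, 5′ to 3′ on the gene's strand, from the RefSeq promoter table (GRCm38.p6), because 2 of the 3 genes fell and Ugt2b36 did not pass the test. Capitals mark AGGTCA, the core that many nuclear receptors bind, and it is the only motif searched that matched there.
Ugt2b5 (chr5:87140341-87140490, minus strand): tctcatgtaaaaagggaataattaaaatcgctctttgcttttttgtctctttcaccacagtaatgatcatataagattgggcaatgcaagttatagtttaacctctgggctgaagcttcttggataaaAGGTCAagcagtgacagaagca
Ugt2b38 (chr5:87424204-87424353, minus strand): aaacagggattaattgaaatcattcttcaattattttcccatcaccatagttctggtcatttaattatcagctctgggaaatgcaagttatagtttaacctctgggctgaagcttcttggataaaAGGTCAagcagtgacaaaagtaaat
Ugt2b36 (chr5:87092556-87092705, minus strand): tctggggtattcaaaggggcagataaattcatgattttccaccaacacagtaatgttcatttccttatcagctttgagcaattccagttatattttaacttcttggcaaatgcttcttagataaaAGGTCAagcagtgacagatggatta
AGGTCA began 22, 25 and 25 bases before the start, and in Ugt2b37 it began 39 bases before. The table held 20 of the 23 expressed members and had no entry for Sult2a7, Ugt1a6b or Ugt3a2. Within 300 bases around the start, on either strand, AGGTCA was in 8 of the 20 and in 16.3% of all 32851 promoters. The 8 include Ugt2b5, Ugt2b36, Ugt2b37 and Ugt2b38, which carry it in the same shared stretch, so their matches are not independent. Members are counted by gene, with a match in any promoter of the gene, and the percentages are per promoter, so the 2 are not on the same footing where a gene has several promoters, as Sult1b1 and Sult2a8 do. AGTTCA, a variant of the core found in elements for PXR and CAR, was in 6 of the 20 and in 14.0% of all promoters. GCGTG, the core of the AHR site, was in Ugt1a5, Sult1b1 and Sult1d1, 3 of the 20, and in 32.4% of all promoters. TTCNNNGAA, the STAT motif, was in Ugt1a6a and Sult3a1, 2 of the 20, and in 8.30%. TGACNNNGC, the core of the antioxidant response element bound by NRF2, and the E-box CACGTG were in 0 of the 20, and in 12.4% and 7.15% of all promoters. A match is a description of these letters only.

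Ugt2b36, also high in liver, measured 349, 277, 213, 193 and 219 FPKM in Ctrl 1 to 5, 216, 221, 256, 291 and 258 in Alc 1 to 5, and 237, 234, 236, 278 and 173 in Alc UA 1 to 5. The groups overlapped throughout, and the difference in Alc was 0.02 ± 0.16 (adjusted p = 0.95, limma). Ugt2b1 measured 98.2, 87.1, 83.8, 85.7 and 168 FPKM in Ctrl 1 to 5, 65.6, 88.1, 53.3, 80.0 and 93.8 in Alc 1 to 5, and 93.3, 148, 112, 84.9 and 91.2 in Alc UA 1 to 5. Ctrl 5 stood above the other controls, and the differences of -0.43 ± 0.21 in Alc (adjusted p = 0.12, limma) and 0.04 ± 0.21 in Alc UA (adjusted p = 0.89, limma) did not pass.

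Ugt2b35 measured 41.3, 39.4, 29.5, 28.5 and 33.3 FPKM in Ctrl 1 to 5, 40.4, 43.9, 44.1, 55.7 and 48.6 in Alc 1 to 5, and 39.9, 59.7, 38.3, 91.5 and 44.5 in Alc UA 1 to 5. Alc UA 4 was the highest of all, and the other Alc UA libraries lay close to the Alc range. In Alc UA it rose by 0.59 ± 0.20 (adjusted p = 0.024, limma), a call lost without Ctrl 3, Ctrl 4 or Alc UA 2 and with the 2 groups fitted alone, and the value was 0.39 without Alc UA 4. In Alc the difference was 0.43 ± 0.20 (adjusted p = 0.10, limma). With size factors it was 0.56 (adjusted p = 0.023, limma).

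Ugt2a3 measured 85.0, 66.6, 85.5, 86.5 and 93.7 FPKM in Ctrl 1 to 5, 108, 90.6, 128, 86.7 and 100.2 in Alc 1 to 5, and 117, 90.0, 111, 129 and 107 in Alc UA 1 to 5. Most alcohol libraries were above the controls, with some overlap in each group. It rose by 0.40 ± 0.12 in Alc UA (adjusted p = 0.017, limma), and the difference in Alc was 0.29 ± 0.12 (adjusted p = 0.082, limma), which passed with size factors (0.42, adjusted p = 0.036, limma).

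The UGT3A enzymes use UDP-sugars other than UDP-glucuronic acid. Ugt3a2 measured 129, 139, 116, 112 and 158 FPKM in Ctrl 1 to 5, 153, 177, 145, 169.6 and 197 in Alc 1 to 5, and 166, 176, 159, 165 and 201 in Alc UA 1 to 5. Ctrl 5 lay inside the Alc range and just under the lowest Alc UA library. It rose by 0.36 ± 0.11 in Alc (adjusted p = 0.023, limma) and by 0.41 ± 0.11 in Alc UA (adjusted p = 0.0096, limma), and the call in Alc was lost without Ctrl 3, Ctrl 4, Alc 2 or Alc 5. Ugt3a1 measured 43.7, 35.2, 42.7, 27.3 and 52.1 FPKM in Ctrl 1 to 5, 51.4, 47.5, 45.9, 45.5 and 49.8 in Alc 1 to 5, and 55.0, 40.1, 49.0, 54.1 and 49.1 in Alc UA 1 to 5. Its differences, 0.28 ± 0.14 in Alc (adjusted p = 0.13, limma) and 0.32 ± 0.14 in Alc UA (adjusted p = 0.075, limma), did not pass. Without Ctrl 5, the highest control, both passed, at 0.38 (adjusted p = 0.029, limma) and 0.42 (adjusted p = 0.016, limma). Ugt3a1 and Ugt3a2 had 93.3% identical coding sequence but no identical window of 100 bases.

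**Figure D3:**
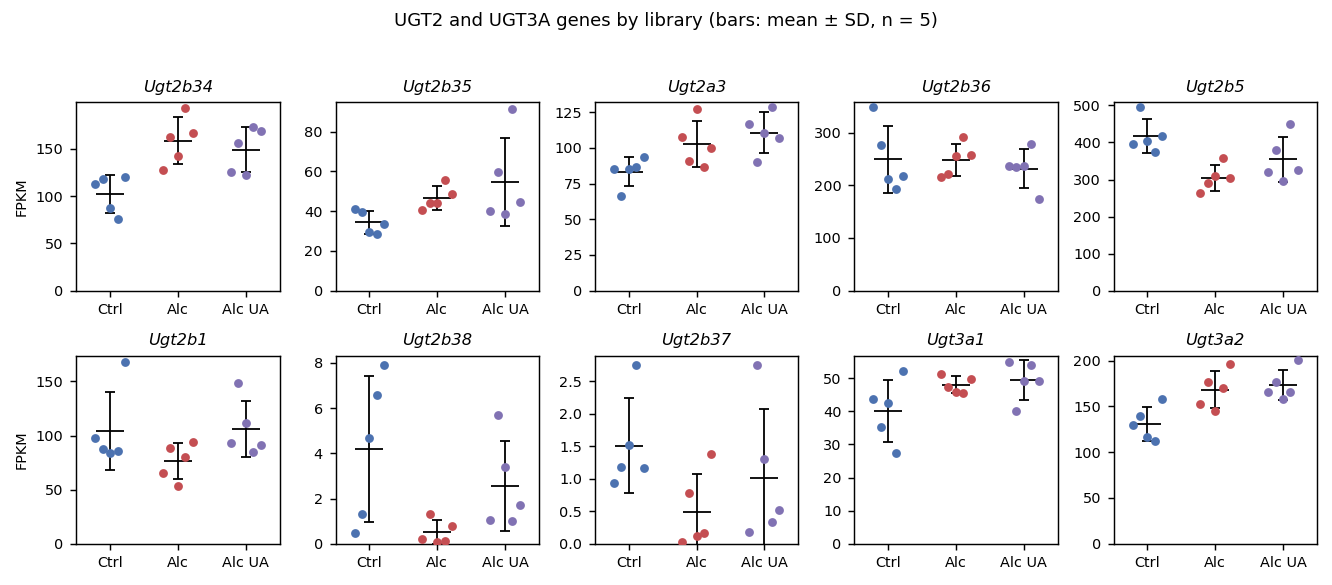
FPKM of the UGT2 and UGT3A genes with a group mean of at least 0.5 FPKM, with points for libraries and bars for the mean ± SD of 5 (bars that would pass below 0 end at the axis). Ugt2b34 lies above all controls in both alcohol groups, and Ugt2b5 in the Alc libraries lies below all controls.

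Of the SULT1 genes, 2 of 4 tested rose in Alc and none fell, where 10.6% of all tested genes rose. Sult1b1, a sulfotransferase of thyroid hormones and phenols, measured 18.3, 6.81, 8.5, 9.51 and 15.4 FPKM in Ctrl 1 to 5, 21.5, 22.4, 26.3, 20.9 and 26.5 in Alc 1 to 5, and 29.5, 18.2, 22.6, 16.1 and 17.3 in Alc UA 1 to 5. All Alc libraries were above all controls, and Alc UA 2, 4 and 5 lay below Ctrl 1, the highest control. The mean went from 11.7 ± 4.91 FPKM in Ctrl to 23.5 ± 2.68 in Alc. The difference was 1.03 ± 0.22 in Alc (adjusted p = 0.0031, limma) and 0.83 ± 0.22 in Alc UA (adjusted p = 0.0076, limma).

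Sult1c2 was low. It measured 6.23, 2.13, 1.71, 1.61 and 1.54 FPKM in Ctrl 1 to 5, 3.89, 5.83, 3.0, 11.1 and 5.79 in Alc 1 to 5, and 2.28, 2.28, 4.03, 4.22 and 3.27 in Alc UA 1 to 5. Ctrl 1 stood above the other controls and within the Alc range, and Alc 4 was the highest Alc library. It rose by 0.95 ± 0.30 in Alc (adjusted p = 0.026, limma), and the call was lost without Ctrl 2, Ctrl 3, Ctrl 4, Alc 2, Alc 4 or Alc 5, at adjusted p from 0.051 to 0.064 (limma). In Alc UA the difference was 0.31 ± 0.30 (adjusted p = 0.42, limma).

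Whether the other SULT1 genes passed the test in Alc depended on Ctrl 1 and also on the scaling and the fit. Sult1d1, a sulfotransferase of catecholamines in mice, measured 133, 36.3, 36.5, 26.4 and 41.9 FPKM in Ctrl 1 to 5, 82.2, 71.7, 88.3, 56.9 and 77.2 in Alc 1 to 5, and 68.9, 55.9, 55.8, 51.9 and 47.8 in Alc UA 1 to 5. Ctrl 1 exceeded every other library, while the other controls lay below all alcohol libraries. With Ctrl 1 the difference in Alc was 0.69 ± 0.30 (adjusted p = 0.087, limma), and without it 1.07 (adjusted p = 0.00024, limma). In Alc UA it was 0.28 ± 0.30 (adjusted p = 0.48, limma), and without Ctrl 1 it was 0.66 (adjusted p = 0.0040, limma). Sult1a1, the main phenol sulfotransferase, measured 441, 208, 244, 271 and 264 FPKM in Ctrl 1 to 5, 479, 354, 394, 308 and 354 in Alc 1 to 5, and 444, 255, 345, 277 and 215 in Alc UA 1 to 5. Ctrl 1 was again the highest control, and for Sult1a1 it lay inside the Alc range, below which the other controls lay. The difference in Alc was 0.44 ± 0.21 (adjusted p = 0.11, limma), and without Ctrl 1 it was 0.61 (adjusted p = 0.026, limma). With all libraries divided by size factors, Sult1d1 (0.82, adjusted p = 0.036, limma) and Sult1a1 (0.57, adjusted p = 0.048, limma) also passed in Alc. So they did with library weights (0.96, adjusted p = 0.00047, and 0.67, adjusted p = 0.0029, limma). The replicate number as a block gave adjusted p = 0.047 and 0.024 (limma). Under quantile normalization Sult1a1 passed (adjusted p = 0.029, limma) and Sult1d1 did not. In Alc UA the difference of Sult1a1 was 0.11 ± 0.21 (adjusted p = 0.70, limma).

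Sult2a8, a bile acid sulfotransferase of mouse liver, had the highest level of the SULT genes. It measured 403, 471, 324, 388 and 502 FPKM in Ctrl 1 to 5, 406, 465, 446, 305 and 429.6 in Alc 1 to 5, and 504, 443, 482, 435 and 435 in Alc UA 1 to 5. The groups overlapped, and the differences were -0.02 ± 0.13 in Alc (adjusted p = 0.90, limma) and 0.15 ± 0.13 in Alc UA (adjusted p = 0.37, limma). The Alc value was positive with size factors, at 0.11.

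Sult2a7, a low relative of Sult2a8, measured 1.18, 0.9, 0.79, 0.74 and 0.54 FPKM in Ctrl 1 to 5, 1.43, 4.3, 3.89, 3.59 and 3.42 in Alc 1 to 5, and 1.82, 0.5, 0.9, 1.91 and 2.83 in Alc UA 1 to 5. The 5 Alc libraries lay above all controls, with Alc 1 nearest to them, and Alc UA spread over both ranges. It rose by 1.20 ± 0.24 in Alc (adjusted p = 0.0021, limma), or 1.83 with a pseudocount of 0.1, and in Alc UA the difference from Ctrl was 0.43 ± 0.24 (adjusted p = 0.15, limma). The Alc UA difference passed with quantile normalization (0.62, adjusted p = 0.044, limma) and without Alc UA 2 (0.61, adjusted p = 0.041, limma). Sult2a7 reached the 1 FPKM minimum in 1 control, so its entry into the test rested mostly on the alcohol libraries.

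Sult3a1, an amine sulfotransferase, was listed at 0 in every control. It measured 0.06, 0.06, 0.10, 3.27 and 1.55 FPKM in Alc 1 to 5, and 0.06 in Alc UA 1 with the other Alc UA libraries listed at 0. Its Alc mean thus rested on Alc 4 and Alc 5, and it was not tested. Sult5a1 ranged from 1.11 to 5.27 FPKM in Ctrl, 0.77 to 5.16 in Alc and 0.79 to 5.26 in Alc UA, with a difference of -0.30 ± 0.38 in Alc (adjusted p = 0.56, limma).

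**Figure D4:**
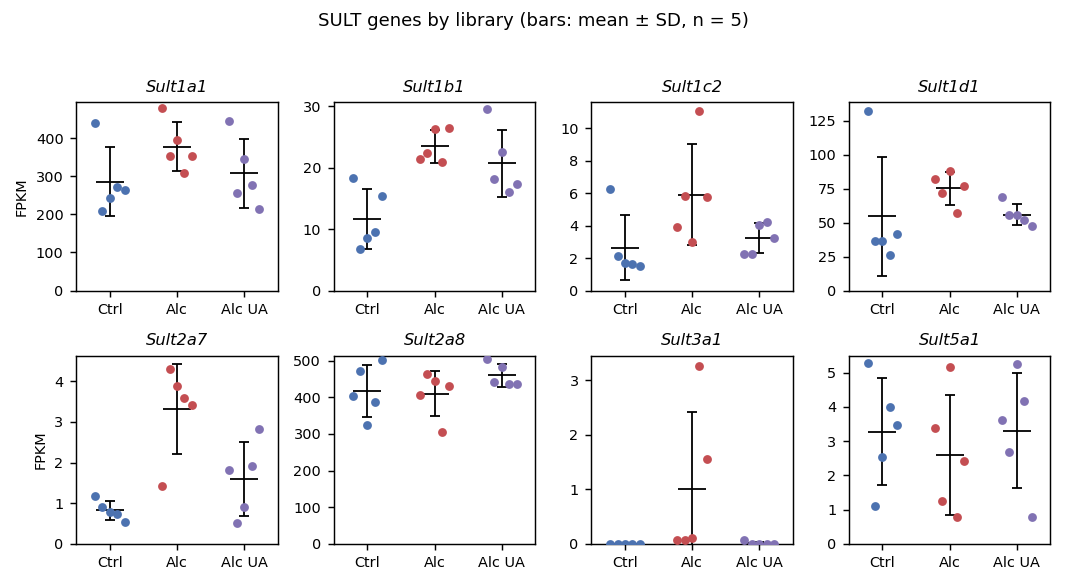
FPKM of the 8 SULT genes with a group mean of at least 0.5 FPKM, with points for libraries and bars for the mean ± SD of 5. Sult1b1 and Sult2a7 in the Alc libraries lie above all controls, and Ctrl 1 stands above the other controls for Sult1a1, Sult1c2 and Sult1d1.

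Adding UA to the alcohol diet moved no member past the threshold. By limma, 0 of 22 were called higher and 0 lower in Alc UA against Alc, where 0.00912% of all tested genes, 1 gene, was called. At an unadjusted p under 0.05 there were 4 members of 22, and 664 of all 10959 genes. The 4 were Sult2a7 (-0.77 ± 0.24), Ugt2b38 (1.14 ± 0.46), Ugt1a9 (-0.80 ± 0.35) and Ugt2b1 (0.47 ± 0.21), each with an adjusted p between 0.67 and 0.82 (limma). For Ugt2b38, Alc UA 2, Alc UA 3 and Alc UA 5 were above all Alc libraries and the other 2 were not. For Ugt1a9, 3 Alc UA libraries were below all Alc libraries. No member had groups without overlap, against 1.18% of all tested genes. Ugt1a1 differed by -0.07 ± 0.22 and Ugt1a6b by -0.24 ± 0.17, and the median over the 22 was -0.02. A missed threshold does not show that the diets act alike, since an SE of 0.35, as for Ugt1a9, leaves a wide interval.

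Alc UA against Ctrl shares its controls with Alc against Ctrl, and the values of both stand side by side above. In it, 8 of 22 members rose and 1 fell, which is 36.4% and 4.55%, where 42.6% of all tested genes were called, 10.5% higher and 32.1% lower. The 8 were Ugt1a1, Ugt1a9, Sult1b1, Ugt1a6a, Ugt2b35, Ugt2b34, Ugt3a2 and Ugt2a3, and the gene that fell was Ugt1a6b. Groups did not overlap for 3 of those that rose and for Ugt1a6b, where 20.2% of all tested genes did not overlap, 5.48% higher and 14.7% lower. In Alc against Ctrl they did not overlap for 5 that rose and for Ugt2b5, where the shares were 15.8% in all, 6.18% higher and 9.61% lower.

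The supply of the sugar donor was followed over 9 genes, of which 2 rose and 1 fell in Alc. That is 22.2% higher and 11.1% lower, against 10.6% and 22.8% of all tested genes. Ugp2, which makes UDP-glucose, rose from 94.0 to 204 FPKM (1.15 ± 0.18, adjusted p = 0.00041, limma). Pgm2, a phosphoglucomutase, rose from 77.0 to 116 FPKM (0.60 ± 0.12, adjusted p = 0.0017, limma). In both, all Alc libraries were above all controls. Hk1, a hexokinase that is minor in hepatocytes, fell from 2.19 to 1.05 FPKM (-0.61 ± 0.18, adjusted p = 0.017, limma), with -0.98 at a pseudocount of 0.1. Ugdh, named after its values were seen because it makes UDP-glucuronic acid itself, went from 55.7 to 38.1 FPKM (-0.44 ± 0.30, adjusted p = 0.27, limma), with Ctrl 1 at 109 and the other controls between 34.1 and 55.8.

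For the sulfo donor PAPS and for sulfate, 3 of 8 tested genes rose and 1 fell, against 10.6% and 22.8% of all tested genes. Papss2, which makes PAPS, rose from 30.1 to 69.0 FPKM (1.17 ± 0.14, adjusted p = 6.2e-05, limma). Suox, which makes sulfate from sulfite, rose from 48.3 to 73.8 FPKM (0.61 ± 0.10, adjusted p = 0.00079, limma). The PAPS carriers of the Golgi went apart: Slc35b2 rose from 18.6 to 27.0 FPKM (0.51 ± 0.09, adjusted p = 0.00092, limma) and Slc35b3 fell from 8.19 to 5.43 (-0.51 ± 0.09, adjusted p = 0.0011, limma). In all 4 genes the Alc and control libraries did not overlap.

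**Figure D5:**
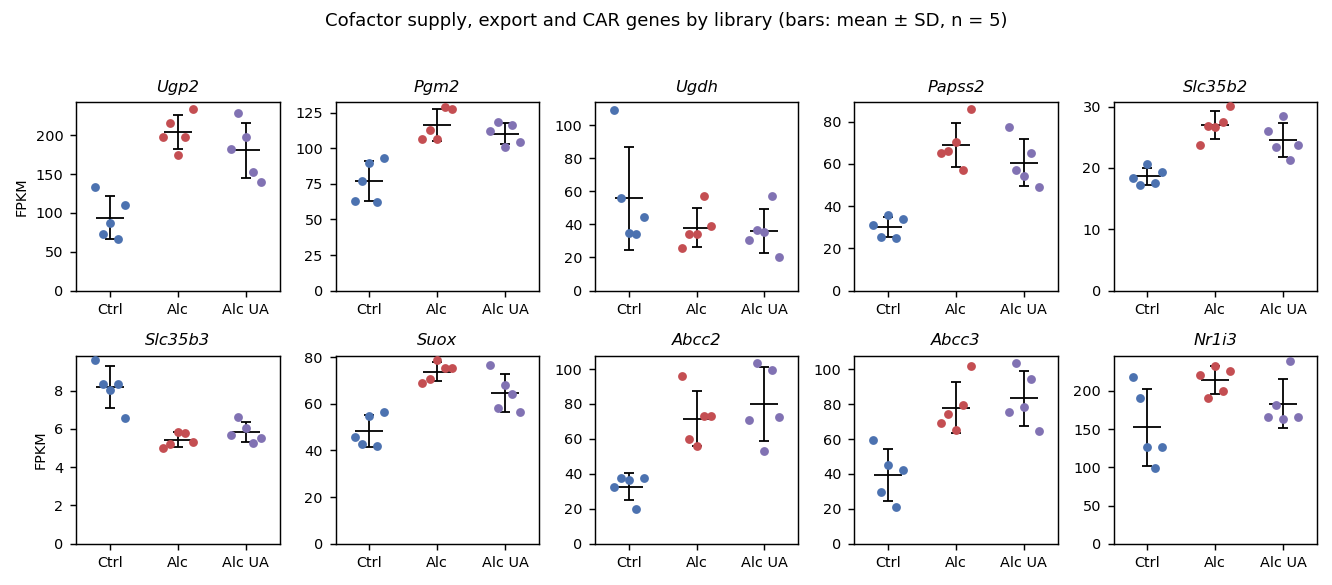
FPKM in each library of genes for donor supply (Ugp2, Pgm2, Ugdh, Papss2, Slc35b2, Slc35b3, Suox), export (Abcc2, Abcc3) and the receptor CAR (Nr1i3), with points for libraries and bars for the mean ± SD of 5. Papss2 lies between 57.3 and 86.1 FPKM in Alc and between 24.8 and 35.6 in Ctrl, while Ugdh overlaps between groups.

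Of 5 tested exporters of conjugates, 2 rose and 1 fell. That is 40% higher and 20% lower, against 10.6% and 22.8% of all tested genes. Abcc2 (MRP2), the pump for bilirubin glucuronides into bile, rose from 32.7 to 71.7 FPKM (1.12 ± 0.21, adjusted p = 0.0013, limma). Abcc3 (MRP3), which exports glucuronides into blood, rose from 39.5 to 78.0 FPKM (1.03 ± 0.22, adjusted p = 0.0034, limma), and neither overlapped with Ctrl. Abcc5 fell from 2.29 to 1.10 FPKM (-0.59 ± 0.19, adjusted p = 0.025, limma). Of 5 tested genes that cleave conjugates or activate sulfatases, the lysosomal sulfatases Arsb (0.55 ± 0.14, adjusted p = 0.0071, limma) and Arsa (0.35 ± 0.13, adjusted p = 0.049, limma) rose and Arsg fell (-0.86 ± 0.22, adjusted p = 0.0093, limma). This too is 40% higher and 20% lower, against 10.6% and 22.8% of all tested genes. The call of Abcc5 was lost without Ctrl 1, Ctrl 3, Ctrl 4, Alc 1 or Alc 5, and that of Arsa without Ctrl 2, Ctrl 4, Ctrl 5, any of Alc 1 to 4, or Alc UA 2, 3 or 5, with no filter, with the 2 groups alone and with the replicate number as a block (adjusted p = 0.059, limma).

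Of 16 regulators known for UGT and SULT genes, 9 rose in Alc and none fell, against 10.6% and 22.8% of all tested genes. This list, like the others, was chosen with earlier results of these data known, so the share is a description only. Nr1i3, which encodes CAR, rose from 152 to 214 FPKM (0.55 ± 0.18, adjusted p = 0.031, limma) and Nr1i2, which encodes PXR, from 38.7 to 51.2 (0.39 ± 0.15, adjusted p = 0.049, limma). The call of Nr1i3 was lost without Ctrl 3, Ctrl 4, Ctrl 5, Alc 1, Alc 3 or Alc 5, and that of Nr1i2 without Ctrl 2, Ctrl 4, Ctrl 5, Alc 1, Alc 2, Alc 4, Alc 5 or Alc UA 1, 3 or 5. The replicate number as a block also ended both calls (adjusted p = 0.052 and 0.076, limma), as did the 2 groups alone (0.051) and library weights (0.34, adjusted p = 0.075, limma) for Nr1i3, and no filter and leaving out Ctrl 1 with Ctrl 5 for Nr1i2. Their partner Rxra rose by 0.53 ± 0.11 (adjusted p = 0.0022, limma), Ppara by 0.77 ± 0.14 (adjusted p = 0.0013, limma) and Arnt, the partner of AHR, by 0.39 ± 0.12 (adjusted p = 0.023, limma, lost without Ctrl 4, Alc 5, or Ctrl 1 with Ctrl 5). Also higher were Esrrg (0.67, or 1.40 with a pseudocount of 0.1), Hlf (0.80), Tef (1.76) and Dbp (3.98). The last 3 are the clock-controlled PAR bZIP factors, and Dbp went from 4.31 to 83.3 FPKM. Ahr, Nr1h4 (FXR), Nfe2l2 (NRF2), Keap1, Hnf4a, Rora and Stat5b did not pass, with differences between -0.28 (Stat5b, adjusted p = 0.051, limma) and 0.06 (Rora, adjusted p = 0.64, limma).

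Targets of these receptors outside the conjugating enzymes were counted in the same comparison, where 10.6% of all tested genes rose and 22.8% fell. For CAR and PXR, 3 of 4 tested genes rose: Cyp2c29 by 1.60 ± 0.33, Cyp3a11 by 1.44 ± 0.24 and Por by 1.27 ± 0.15, and none fell. Aldh1a1, the other tested gene, did not pass (0.65 ± 0.25, adjusted p = 0.055, limma). Cyp2b10 and Cyp2c55 were too low to be tested, with means of 0.066 and 0.30 FPKM in Ctrl and 0.87 and 0.67 in Alc. For AHR, 0 of 2 tested were called. For NRF2, 0 of 6 rose and Gclc, of glutathione synthesis, fell by 0.83 ± 0.24 (adjusted p = 0.016, limma), a call lost without Ctrl 1 and Ctrl 5 together (-0.66, adjusted p = 0.071, limma). In Alc UA against Alc, none of these lists had a gene called.

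Markers of cell types moved with the alcohol diet as well, in a comparison where 22.8% of all tested genes were lower and 10.6% higher. Of 5 hepatocyte markers, 2 were called lower in Alc and none higher, and their summed FPKM ran from 33848 to 56167 in Ctrl and 43602 to 59783 in Alc. Of 7 markers of sinusoidal endothelium, 6 were lower, with sums of 93.1 to 265 FPKM in Ctrl, 41.4 to 87.3 in Alc and 44.0 to 57.9 in Alc UA. All 5 erythroid markers were lower, with sums of 1431 to 8800 in Ctrl and 576 to 988 in Alc. Of 4 tested cholangiocyte markers 1 was lower, and 0 of 5 Kupffer cell and 0 of 5 stellate cell markers were called. Of 4 intestinal markers, 2 were tested and lower, and the other 2 were under 0.5 FPKM on average, as were all 4 kidney markers. The part of these shifts in the UGT and SULT differences was not tested.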

How the data were processed

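RNA sequencing of total RNA from 15 mouse livers was analysed, 5 each in the groups Ctrl, Alc and Alc UA. The values are FPKM as the authors deposited them, in 1 table of 18510 gene symbols. Per the submitters' processing notes, the tools were RSEM 1.2.8, HISAT2 2.1.0, Bowtie2 2.2.5, DESeq and StringTie, and no role is given for any of them. Genome build, annotation and strand setting: not given in the sources used here. The series' design text names 5 mice per group. FPKM hold no counts, so precision rests on the spread between libraries.

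Values were taken as log2(FPKM + 1). Genes had to reach 1 FPKM in 5 or more of the 15 libraries, and the 10959 that did entered 1 fit over the 3 groups (limma 3.58.1, R 4.3.3, trended prior, 12 residual degrees of freedom). P-values were adjusted by Benjamini and Hochberg over all tested genes in each comparison, with 0.05 as the threshold. The fit was tested on simulated data. Their noise was independent between genes and libraries, so they do not bear on a library that deviates over many genes.

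Members and gene lists were chosen with earlier results of these data known. All members with a group mean of at least 0.5 FPKM are named. Values of every library are printed for members called in a comparison or with a group mean of at least 20 FPKM, and for Sult3a1, which was added after its values were seen. Genes of the donor, cleavage, export and receptor-target lists are named where called in Alc against Ctrl, and regulators always. Ugdh, Aldh1a1, Cyp2b10 and Cyp2c55 are named besides. Cell type markers are only counted, and 2 regulators are left out and not reported here. Coding sequences came from GENCODE M21 and promoters from RefSeq (GRCm38.p6). Identity was computed with edlib 1.3.9 in Python 3.11.15 and figures with matplotlib 3.10.9. The alternatives concerned the pseudocount, the filter, the scaling, the libraries and groups fitted, library weights and the replicate number.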

Additional observations from a re-analysis of the deposited data

Results flagged for a closer look

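In 68 groups of 5 libraries with a named member, 6 had 1 library far from the others by Dixon's test (critical value 0.71). Chance alone flags about 1 in 20 groups. Ctrl 1 was high for Sult1a1, at 440.58 FPKM with the next control at 270.8, for Sult1c2, at 6.23 with the next at 2.13, and for Sult1d1, at 132.54 with the next at 41.87. Ctrl 5 was high for Ugt2b1, at 168.14 FPKM with the next control at 98.17. Alc 5 was high for Ugt1a6a, at 18.79 FPKM with the next Alc library at 14.11. Sult3a1 was at 0.06 FPKM in Alc UA 1 and listed at 0 in the other Alc UA libraries.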

How the results depend on the processing

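The calls of Ugt1a1, Ugt1a9, Ugt2b34, Sult1b1 and Sult2a7 in Alc against Ctrl held in every alternative run. Members called higher in that comparison numbered 8, and 13 with library weights. Calls over all genes were 1157 higher and 2497 lower, and 1821 and 4049 with library weights. With single libraries left out, members called higher numbered 5 to 9, and those called lower 1 to 4. The lowest of both came without Ctrl 4, and 5 higher also without Alc 5. Over all genes, 846 were called higher in either case, with 1978 lower without Ctrl 4 and 1725 lower without Alc 5. In Alc UA against Ctrl, members called lower numbered 1, 2 with library weights, and 1 to 2 with single libraries left out (2 without Alc UA 4). The gene added in both cases was Ugt2b5. Over all genes 3521 were called lower, 4062 with library weights and 3390 without Alc UA 4. In Alc UA against Alc the count of members stayed at 0 in every alternative, where at most 5 of all genes were called. Without Ctrl 1 and Ctrl 5, 11 members rose and 3 fell in Alc against Ctrl, and 1114 and 2571 of all tested genes did. With the replicate block 10 members rose and 3 fell, with Sult1a1 and Sult1d1 added, and the calls of Nr1i2, Nr1i3 and Arsa were lost. Over all genes the block gave 1060 higher and 2494 lower. Same-numbered libraries did not consistently deviate together, so the number was taken as a name only. Their correlations ran from -0.30 to 0.24 in Alc against Ctrl, with 1 of 5 libraries closest to its own number. They ran from -0.11 to 0.18 in Alc UA against Alc (0 of 5) and from -0.22 to 0.29 in Alc UA against Ctrl (1 of 5).

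Small differences that missed the threshold changed sign, and the cause was not tested. For Alc against Ctrl, Sult2a8 was 0.11 with size factors, 0.14 with quantile normalization and 0.058 without Ctrl 1 and Ctrl 5. With library weights Sult5a1 was 0.11 and Ugt2b36 -0.10. For Alc UA against Alc, Ugt3a2 was -0.0055 with library weights. For Alc UA against Ctrl, size factors, quantile normalization and leaving out Ctrl 1 and Ctrl 5 gave 0.16, 0.13 and 0.21 for Ugt1a5, 0.12, 0.18 and 0.25 for Sult5a1, and 0.10, 0.10 and 0.028 for Ugt2b36. Library weights gave 0.49 for Sult5a1. With single libraries left out, Alc against Ctrl ran from -0.11 to 0.078 for Sult2a8 and -0.069 to 0.14 for Ugt2b36. Alc UA against Alc ran from -0.0075 to 0.10 for Ugt3a2, -0.0035 to 0.11 for Ugt3a1, -0.16 to 0.031 for Ugt1a1, -0.0076 to 0.15 for Ugt1a6a and -0.041 to 0.27 for Ugt2b35. Alc UA against Ctrl ran from -0.18 to 0.038 for Ugt2b36, -0.25 to 0.27 for Sult5a1, -0.28 to 0.32 for Ugt1a5, -0.087 to 0.23 for Ugt2b1 and -0.036 to 0.28 for Sult1a1.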
